A study of Mus musculus with 4 samples.

Results

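The type I interferon-stimulated genes followed here are a list of 40 genes, each known to be induced when a cell senses type I interferon. They were found by symbol in a table of 17780 genes measured by RNA-Seq in mouse lung, and 38 of the 40 were in the table. Mx1 and Mx2 were not analysed here. All 38 had at least 10 reads in at least 1 library, which was the minimum set for stating a ratio. The lungs came from male C57BL/6 mice (C57BL/6J in the methods) aged 6 to 7 weeks that were dosed orally on weekdays, 5 times per week, in a model of interstitial lung disease caused by the antiarrhythmic drug amiodarone. A control group received only the carboxymethylcellulose vehicle. Each dose was 300 mg per kg of amiodarone or 60 mg per kg of dabigatran, and these were given alone or together (amiodarone + dabigatran, called the combination from here on). Dabigatran is an oral anticoagulant that inhibits thrombin, and the question was whether it alters the response of the lung to amiodarone. The labels give 28 days of treatment, whereas the methods place tissue collection on day 26. Each group was represented by 1 library of polyadenylated RNA from the left lung, and the number of mice behind a library is not given in the sources used here.

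Levels are given in FPKM, the number of fragments for each kilobase of a transcript after scaling to library depth, so that they can be compared between genes. The sources used here do not name the unit of the deposited values, and FPKM is how they were read. The estimated reads summed to between 17498486 in the vehicle library and 18903401 in the combination library. A ratio between 2 libraries is given with an exact (Clopper-Pearson) 95% interval computed from the reads of both. With 1 library per group there was no replicate, no test was possible, and the interval covers counting error only, so each ratio compares 2 libraries and not 2 treatments. A difference is called beyond counting error where this interval excludes a ratio of 1. The labelled tissue was checked against its markers. Summed alveolar type 2 markers ranged from 25349 to 27359 FPKM, alveolar type 1 markers from 3214 to 3463 FPKM, endothelial markers from 936 to 1175 FPKM and club cell markers from 77816 to 130281 FPKM over the 4 libraries.

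Type I interferons are secreted by cells that detect foreign or misplaced nucleic acid, and they act on a receptor made of Ifnar1 and Ifnar2 that nearly every cell carries. The receptor activates the kinases Jak1 and Tyk2, which phosphorylate Stat2. Together with Irf9, Stat2 is part of a complex that binds the interferon-stimulated response element in the promoters of target genes. The products of these genes detect viral RNA and DNA, degrade RNA, block virus entry or release, and feed back on the pathway, so that many sensors and signal transducers are themselves induced. In the lung, epithelial cells, macrophages and monocytes all respond in this way.

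Every one of the 38 genes had its highest level in the amiodarone library. Over all 15169 genes with at least 10 reads in 1 library, 20.9% were highest there. The vehicle library was lowest for 31 of the 38, against 21.1% of all genes. The dabigatran library was lowest for 5 (Dhx58, Ifi204, Ifit2, Oasl1 and Samhd1; 19.7% of all genes), and the combination library was lowest for 2 (Ifi203 and Isg20; 20.9% of all genes). The combination library stood second for 31 of the 38 (26.3% of all genes), and dabigatran stood second for the other 7 (27.6%). For 31 genes amiodarone was thus first and the combination second, an order held by 11.9% of all genes. Ifitm3, the most abundant of the 38, was at 479 FPKM in the vehicle library, 1011 in amiodarone, 504 in dabigatran and 691 in the combination. With Ifitm3 included, the 38 genes together summed to 1093 FPKM in the vehicle library, 2686 in amiodarone, 1206 in dabigatran and 1563 in the combination. Their reads made up 0.166% of all reads in the vehicle library (95% Clopper-Pearson interval 0.164 to 0.168), 0.397% in amiodarone (0.394 to 0.399), 0.181% in dabigatran (0.180 to 0.183) and 0.226% in the combination (0.224 to 0.228). Because whole lung was sequenced, fewer cells of a type and less RNA per cell cannot be told apart in these values.

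**Figure D1:**
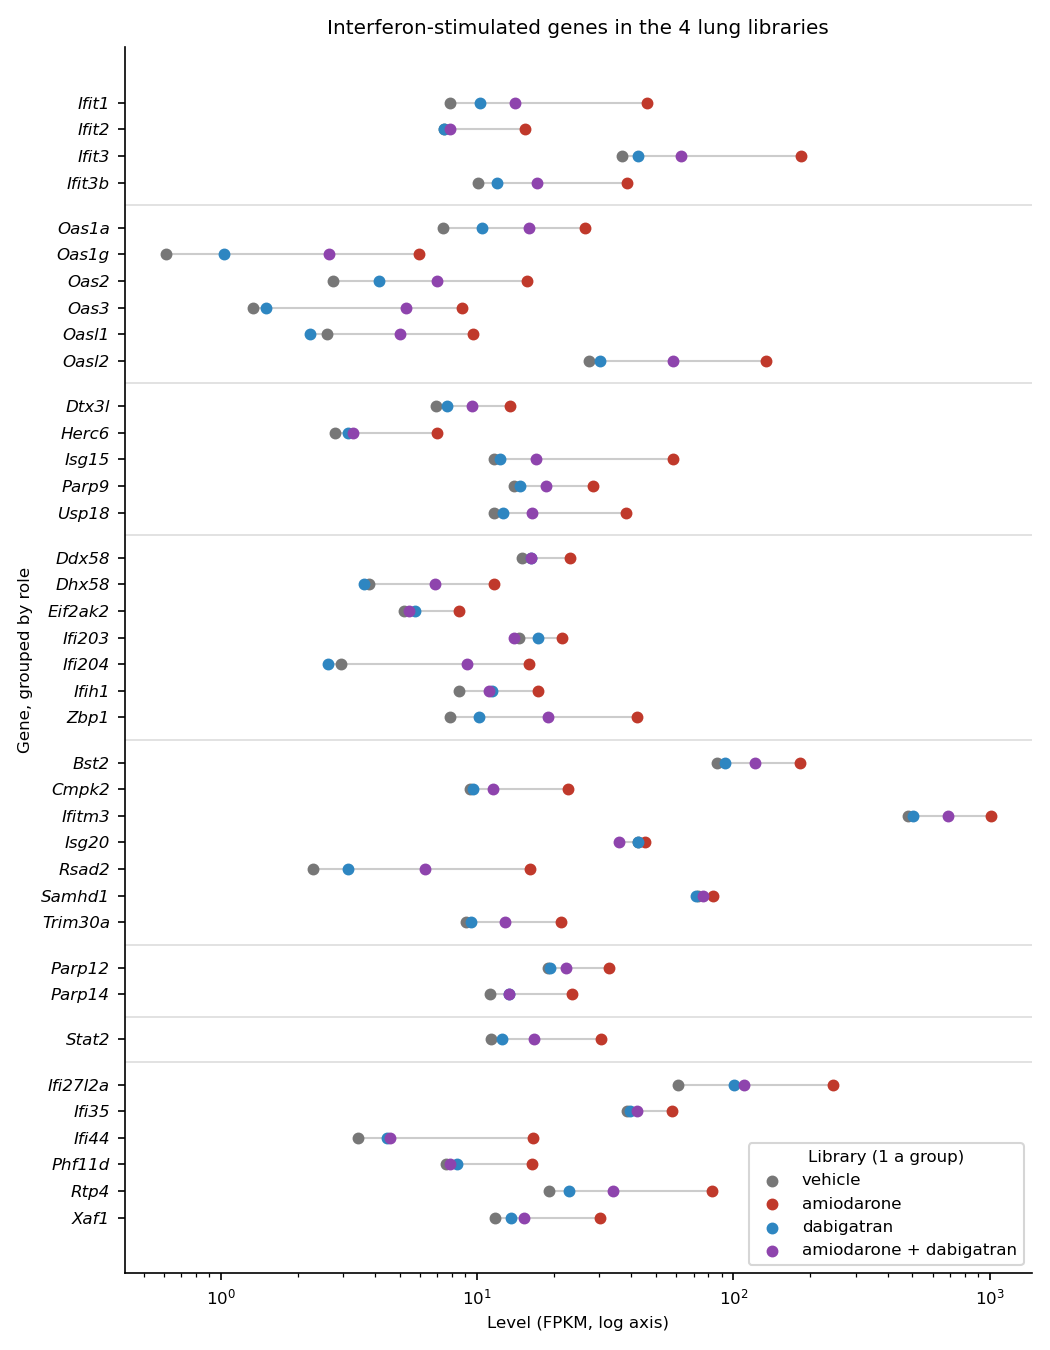
Level of each of the 38 genes in FPKM (log axis) in the vehicle, amiodarone, dabigatran and combination libraries, with genes grouped by role and a line joining the lowest and highest value. Each point is 1 library and has no replicate; the amiodarone point is the rightmost in all 38 genes, and the combination point lies second in 31.

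In the amiodarone library against vehicle, 30 of the 38 genes were at least 2-fold higher, compared with 3.57% of all genes. All 38 were higher, against 40.8% of all genes. None was lower, while 58.6% of all genes were lower and 3.54% were at least 2-fold lower. At a threshold of 1.5-fold 34 were higher, against 6.70% of all genes. All but Isg20 were higher beyond counting error (37 genes), against 18.0% of all genes. The median ratio of the 38 genes was 2.63, or 1.39 on the log2 scale, and the medians of the lower and upper bounds of the intervals were 1.25 and 1.54 on that scale. The median over all genes was -0.06. The ratios ranged from 1.06 for Isg20 to 9.70 for Oas1g.

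In the dabigatran library against vehicle, none of the 38 genes was at least 2-fold higher or lower, and the shares of all genes were 1.20% and 1.29%. At 1.5-fold, Ifi27l2a, Oas1g and Oas2 were higher, which is 3 of 38 against 3.30% of all genes. The direction was upward in 33 of the 38 and downward in 5, with 49.9% and 49.2% of all genes, and 16 were higher beyond counting error against 13.9% of all genes. None was lower beyond counting error, with 12.4% of all genes lower. The median was 0.15 on the log2 scale (medians of the bounds -0.02 and 0.34), and the median of all genes was 0. This comparison and the one of amiodarone against vehicle share the vehicle library.

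When the combination library was set against the amiodarone library, all 38 genes were lower, and all 38 were lower beyond counting error, compared with 42.1% and 13.8% of all genes. At least 2-fold lower were 15 of the 38 against 1.52% of all genes, and at least 1.5-fold lower were 30 against 3.70%. The median was -0.91 on the log2 scale (medians of the bounds -1.05 and -0.75), with 0.04 for all genes. The ratios ran from 0.276 for Ifi44 to 0.908 for Samhd1. This comparison shares the amiodarone library with that of amiodarone against vehicle, so that a high value in that 1 library enters both.

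The pair of libraries that shares none with amiodarone against vehicle is the combination against dabigatran. In it 31 of the 38 genes were higher, against 46.3% of all genes, and 25 were higher beyond counting error against 18.0%. At least 1.5-fold higher were 10 of the 38 (Dhx58, Ifi204, Oas1a, Oas1g, Oas2, Oas3, Oasl1, Oasl2, Rsad2 and Zbp1) against 5.91% of all genes. At least 2-fold higher were 4 (Ifi204, Oas1g, Oas3 and Oasl1) against 2.87%. The 7 genes below a ratio of 1, against 53.0% of all genes, were Ddx58, Eif2ak2, Ifi203, Ifih1, Isg20, Parp14 and Phf11d, and only Ifi203 and Isg20 were lower beyond counting error, which is 2 of 38 against 22.1% of all genes. The median was 0.38 on the log2 scale (medians of the bounds 0.19 and 0.50), and that of all genes was -0.02. These 10 and 4 genes also passed the same threshold in amiodarone against vehicle, which 3.27% of all genes did in both pairs at 1.5-fold and 1.54% at 2-fold.

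**Figure D2:**
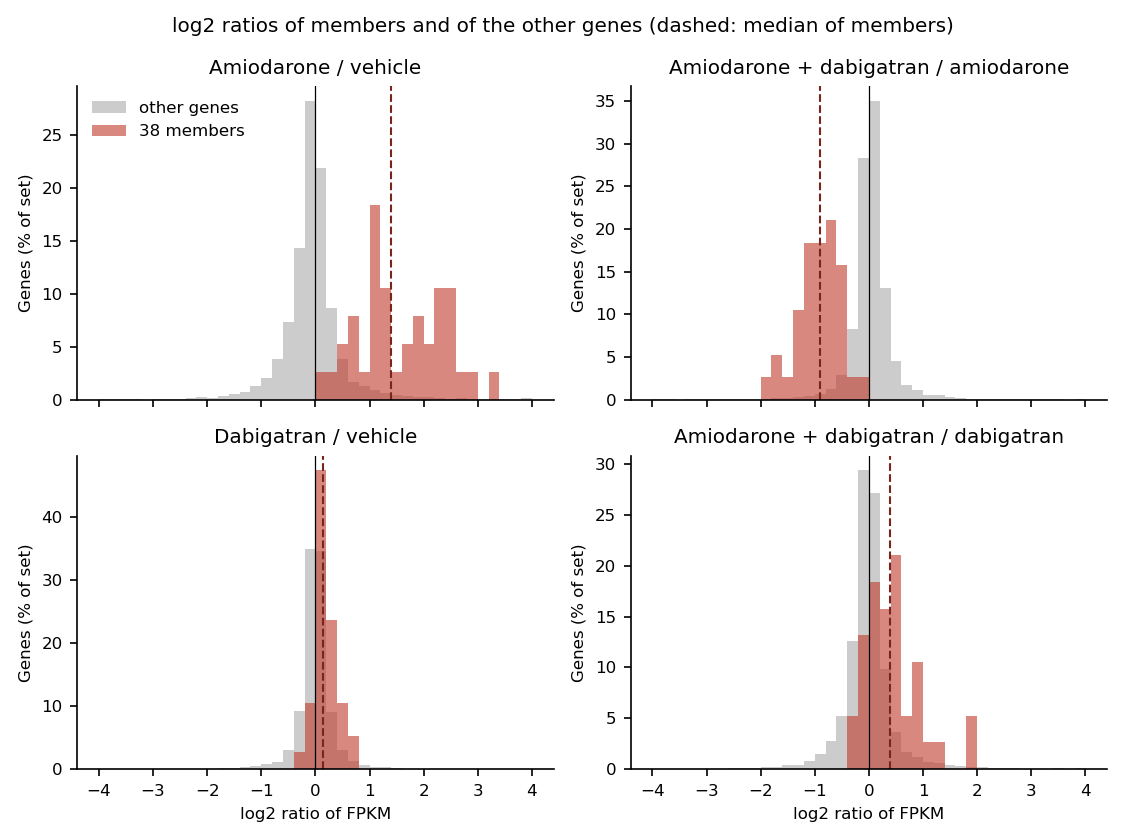
Histograms of the log2 ratio of FPKM in 4 comparisons of 2 libraries, for the 38 genes (red) and the other genes with at least 10 reads (grey), as a percentage of each set, with ratios beyond the axis placed in the outermost bins. The dashed line marks the median of the 38 genes, at 1.39 for amiodarone against vehicle, -0.91 for the combination against amiodarone, 0.15 for dabigatran against vehicle and 0.38 for the combination against dabigatran.

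Amiodarone could therefore be set against a control in 2 pairs of libraries, without dabigatran in the first and with dabigatran in the second. The ratio of amiodarone to vehicle divided by the ratio of the combination to dabigatran was above 1 beyond counting error in all 38 genes, against 14.6% of all genes. It was at least 2 in 21 genes against 2.77%, and at least 1.5 in 35 against 6.23%. The median quotient of the 38 was 2.04. For each of these genes the quotient equals the ratio of amiodarone to the combination multiplied by the ratio of dabigatran to vehicle. It therefore restates those comparisons and is no separate result, and a high value in the amiodarone library enters it too. The quotient ran from 1.08 (95% counting interval 1.03 to 1.14) for Samhd1 to 4.71 (3.69 to 6.02) for Ifi44. Genes that ranked high in the first ratio also tended to rank high in the second. Across the 38 genes Pearson's r of the 2 log2 ratios was 0.753 and Spearman's rho 0.789, and across all 15169 genes they were 0.493 and 0.419. These are correlations across genes measured in the same 4 libraries, and genes are not independent replicates. In both pairs 25 of the 38 were higher with amiodarone beyond counting error, compared with 9.35% of all genes.

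**Figure D3:**
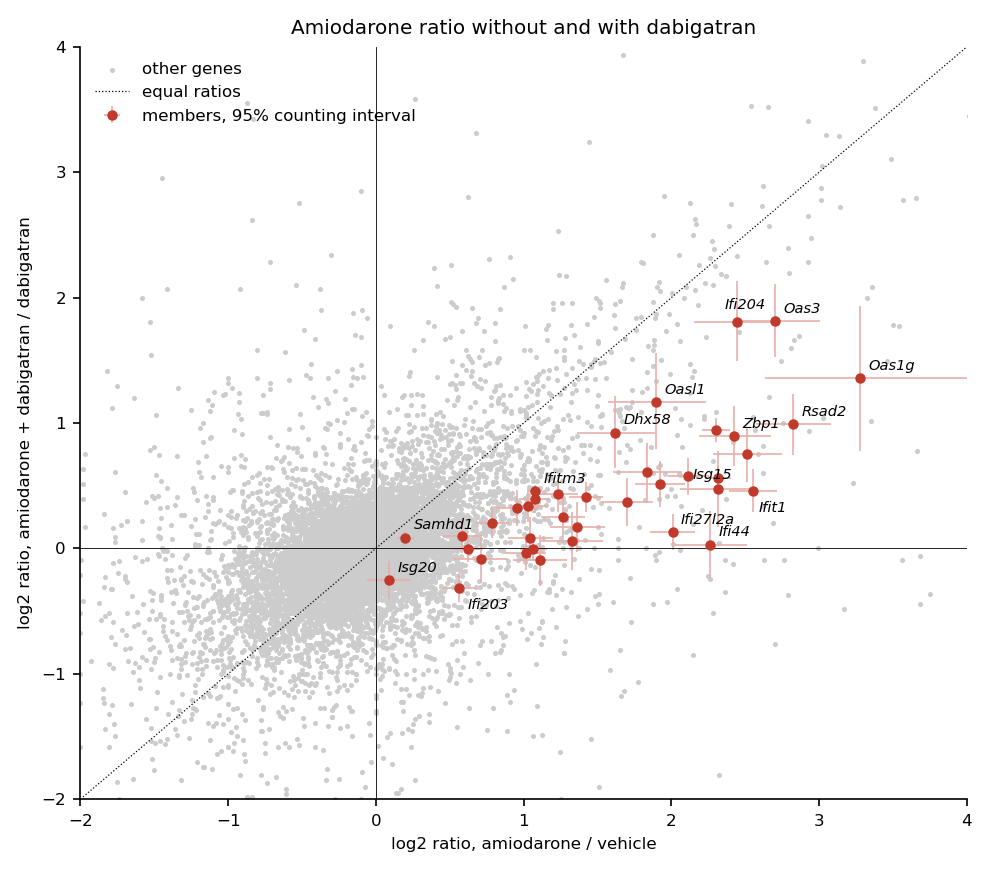
Log2 ratio of amiodarone to vehicle (horizontal) against log2 ratio of amiodarone + dabigatran to dabigatran (vertical) for the 38 genes (red, with 95% counting intervals) and all genes with at least 10 reads (grey; 143 genes lie outside the axes). All 38 genes fall below the dotted line of equal ratios, from Samhd1 with a quotient of 1.08 to Ifi44 with 4.71.

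The promoters of the genes were read next, since the response element is the sequence through which these genes are known to be induced. RefSeq promoter windows (mouse build GRCm38.p6, 250 bases before an annotated start) were matched for 29 of the 38 genes, with 34 windows in all because 4 genes have more than 1. The start used can lie inside the span of the gene, as it does for Ifit3, Ifit3b and Oas1a. Distances are given from the start used. The core searched for was GAAA, any 2 bases, GAAA, on both strands; on the opposite strand it reads TTTC, any 2 bases, TTTC. It was found in 12 of the 29 genes (41.4%), compared with 3.46% of the 27025 genes of the promoter table. By window it was in 35.3% of those of the 38 genes and 2.98% of all. The core of the gamma-activated sequence, TTCNNNGAA, is its own reverse complement. It was found in 6 of the 29 genes (20.7%: Bst2, Eif2ak2, Ifit2, Isg20, Oas1a and Samhd1) and in 8.13% of all genes of the table. A match is a description of the letters and not evidence of binding, and the absence of a match says only that these letters are not in this window.

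The 8 windows printed here are those of the genes that have a match and the largest ratio of amiodarone to vehicle in a role group of more than 1 gene (Isg15, Ifit1, Oas1g and Rsad2), of Oas3 for its ratio in the combination against dabigatran, of Oas1a as the near-identical copy of Oas1g, and of the near-identical pair Ifit3 and Ifit3b. Each holds 60 bases on the strand of the gene, 5′ to 3′, with the response element cores in capitals.
Isg15 (chr4:156200850-156200909, minus strand): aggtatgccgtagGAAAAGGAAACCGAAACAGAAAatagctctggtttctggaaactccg
Ifit1 (chr19:34640779-34640838, plus strand): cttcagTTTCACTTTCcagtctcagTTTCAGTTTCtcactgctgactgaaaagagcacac
Ifit3 (chr19:34583382-34583441, plus strand): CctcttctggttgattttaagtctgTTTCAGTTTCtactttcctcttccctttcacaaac
Ifit3b (chr19:34607778-34607837, plus strand): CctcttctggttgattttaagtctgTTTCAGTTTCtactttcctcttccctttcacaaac
Oas1a (chr5:120907526-120907585, minus strand): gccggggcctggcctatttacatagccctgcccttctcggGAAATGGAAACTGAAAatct
Oas1g (chr5:120887614-120887673, minus strand): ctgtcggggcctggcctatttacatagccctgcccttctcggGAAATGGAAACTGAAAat
Oas3 (chr5:120777700-120777759, minus strand): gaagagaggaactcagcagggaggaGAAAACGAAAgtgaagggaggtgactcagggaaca
Rsad2 (chr12:26456538-26456597, minus strand): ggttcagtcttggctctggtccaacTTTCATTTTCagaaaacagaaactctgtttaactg
Isg15 carried 3 overlapping matches, the nearest ending 56 bases before the start. Ifit1 had 2 separate matches, and its nearest ended 75 bases before the start. Ifit3 and Ifit3b had the same 60 bases at 112 and 144 bases from their starts, and the capital at the first base of both is the end of a second match. In Oas1a the 2 overlapping matches ended 4 bases from the start, and in Oas1g they ended 2 bases from it. Over the 12 genes the nearest match lay between 2 and 212 bases from the start, with a median of 70 bases, and within 150 bases in 11 genes. The 12 genes with a match (Bst2, Ifi203, Ifit1, Ifit3, Ifit3b, Isg15, Oas1a, Oas1g, Oas3, Rsad2, Stat2 and Trim30a) had a median ratio of amiodarone to vehicle of 4.39, ranging from 1.48 to 9.70. The 17 genes without one had a median of 2.06, ranging from 1.06 to 4.94. The ranges of both sets overlap, and at least 2-fold higher were 11 of the 12 and 10 of the 17. For the combination against dabigatran the medians were 1.41 and 1.06.

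**Figure D4:**
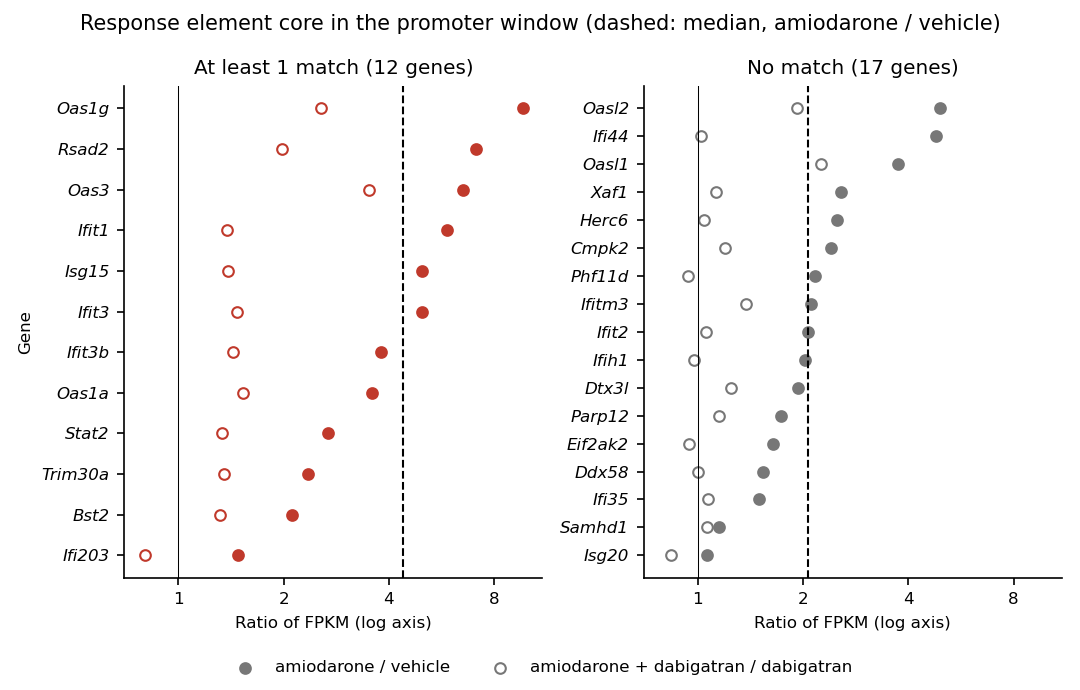
Ratio of FPKM (log axis) for the 12 genes with and the 17 genes without the response element core in the 250 bases before the start, as amiodarone to vehicle (filled) and amiodarone + dabigatran to dabigatran (open), each point a ratio of 2 libraries. The dashed median of the filled points lies at 4.39 with a match and 2.06 without, and Oasl2 and Ifi44 reach 4.94 and 4.81 with no match in the window.

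The IFIT proteins bind viral RNA and hinder its translation, and the 4 genes lie within 99.5 kb on chromosome 19 (chr19:34550550-34650009). All 4 were at least 2-fold higher with amiodarone than with vehicle (median 4.39). Ifit1, which recognizes RNA whose cap lacks the methyl groups of host RNA, was at 7.86 FPKM in the vehicle library, 46.1 in amiodarone, 10.2 in dabigatran and 14.1 in the combination. Its amiodarone level was 5.86 times the vehicle level (5.24 to 6.57), and its combination level was 1.37 times the dabigatran level (1.22 to 1.55). Ifit3 was the most abundant of the family at 36.9, 184, 42.5 and 62.7 FPKM in the same order of libraries. The amiodarone library was above the other 3 for both genes, and the combination library lay nearer to dabigatran than to amiodarone. Ifit3b, the neighbouring copy of Ifit3, had 10.1, 38.5, 11.99 and 17.1 FPKM. Ifit2, which can promote apoptosis, was raised least, at 7.45, 15.4, 7.43 and 7.85 FPKM, and its dabigatran level was within counting error of both vehicle (interval of the ratio 0.881 to 1.13) and the combination (0.937 to 1.19).

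The oligoadenylate synthetases sense double-stranded RNA and make short oligoadenylates, which serve as a signal within the cell. Oas2, Oas3, Oas1g and Oas1a lie within 177 kb of chromosome 5 (chr5:120730333-120907544), and Oasl1 and Oasl2 lie elsewhere on the same chromosome. This family had the highest median ratio of amiodarone to vehicle among the role groups of more than 1 gene, 5.33, and all 6 were at least 3.57 times the vehicle level. It also had the highest median in the combination against dabigatran, 2.09, where all 6 were at least 1.5-fold higher. Oas3, which favours long double-stranded RNA, was at 1.34 FPKM with vehicle and 1.5 with dabigatran, and at 8.72 with amiodarone and 5.26 with the combination. Both amiodarone-treated libraries were therefore far above both others, with ratios of 6.51 (5.34 to 8.06) and 3.51 (2.88 to 4.32). Oas2 had 2.75, 15.7, 4.16 and 7 FPKM with vehicle, amiodarone, dabigatran and the combination. Dabigatran alone was above vehicle for this gene, at 1.51 times its level (1.25 to 1.84). Oas1a had 7.39, 26.4, 10.4 and 15.9 FPKM in that order, and Oas1g had 0.61, 5.92, 1.03 and 2.64 FPKM. Oas1g had the largest ratio of all 38 genes and the widest interval (6.20 to 16.0), since it rested on 21 reads with vehicle. The OAS-like proteins Oasl1 and Oasl2 act in part without making oligoadenylates. Oasl2 was the most abundant of the family at 27.3, 135, 30.3 and 58.2 FPKM, and Oasl1 was measured at 2.59, 9.65, 2.23 and 5.01 FPKM.

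Near-identical copies limit what can be said of single genes, because reads that match both are divided between them by estimation. The longest open reading frames of Ifit3 and Ifit3b were 99.1% identical over 1212 bases, and those of Oas1a and Oas1g 96.7% identical over 1104 bases. Ifit3b took between 17.3% and 21.98% of the summed level of its pair over the 4 libraries. The share of Oas1g in its pair was 7.62% in the vehicle library, 18.3% in amiodarone, 8.98% in dabigatran and 14.2% in the combination. Summed, Ifit3 and Ifit3b were 4.72 times as high with amiodarone as with vehicle and 1.46 times as high with the combination as with dabigatran. The sum of Oas1a and Oas1g gave 4.04 and 1.62. Estimated reads were not whole numbers for 14 of the 38 genes.

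Isg15 is a ubiquitin-like protein that is attached to other proteins, and the enzymes around it were described together. Isg15 itself was at 11.7 FPKM in the vehicle library, 58.2 in amiodarone, 12.3 in dabigatran and 17 in the combination. The amiodarone level was 4.98 times the vehicle level (4.16 to 5.99), and the combination level was 0.292 times the amiodarone level (0.251 to 0.339). Usp18, the protease that removes Isg15 and also dampens the interferon receptor, had 11.7, 37.99, 12.6 and 16.3 FPKM. Herc6, which attaches Isg15 in the mouse, had 2.78, 6.97, 3.15 and 3.28 FPKM, and its combination and dabigatran levels were within counting error (0.886 to 1.22). Dtx3l, a ubiquitin ligase, works as a complex with the ADP-ribosyltransferase Parp9. The genes of both overlap on chromosome 16, and their ratios of amiodarone to vehicle were 1.94 for Dtx3l (1.76 to 2.14) and 2.04 for Parp9 (1.87 to 2.23). Their ratios of the combination to dabigatran were 1.25 and 1.27. Parp14, another ADP-ribosyltransferase, forms with both a stretch of 140.7 kb (chr16:35831892-35972621), and it was at 11.2, 23.5, 13.3 and 13.3 FPKM. Parp12, which lies on another chromosome, had a ratio of amiodarone to vehicle of 1.73 (1.603 to 1.86).

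Ratios of amiodarone to vehicle for the 7 sensors of RNA and DNA ran from 1.48 to 5.44, with a median of 2.02. Zbp1, which binds nucleic acid in the Z form and can trigger cell death, was at 7.84 FPKM in the vehicle library, 42.1 in amiodarone, 10.2 in dabigatran and 18.9 in the combination. Ifi204, a DNA sensor prominent in macrophages and monocytes, was at 2.94, 15.99, 2.62 and 9.17 FPKM. For Ifi204 both amiodarone-treated libraries stood clear of the other 2, and its quotient of 1.55 (1.16 to 2.08) was below the median of 2.04. Ifi203, which belongs to the same protein family and lies within 195.6 kb on chromosome 1 (chr1:173747293-173942866), was at 14.5, 21.5, 17.2 and 13.9 FPKM. It was higher with amiodarone than with vehicle (1.48; 1.37 to 1.60) and lower with the combination than with dabigatran (0.805; 0.742 to 0.874), both beyond counting error. Of the RNA helicases, Ddx58 encodes RIG-I, Ifih1 encodes MDA5 and Dhx58 encodes the related protein LGP2, which modulates both. Dhx58 had 3.78, 11.6, 3.61 and 6.85 FPKM, Ifih1 had 8.53, 17.2, 11.4 and 11.1 FPKM, and Ddx58 had 15, 23.1, 16.2 and 16.2 FPKM. For Ifih1 and Ddx58 the amiodarone library was the highest, and the combination and dabigatran levels were within counting error of each other (0.889 to 1.07 and 0.929 to 1.08). Ifih1 was also higher with dabigatran than with vehicle, at a ratio of 1.34 (1.204 to 1.48). Dhx58 differed from them, with the combination at 1.90 times dabigatran (1.56 to 2.32). Eif2ak2, the kinase PKR that stops translation on binding double-stranded RNA, gave 1.64 for amiodarone against vehicle (1.44 to 1.86) and 0.943 for the combination against dabigatran (0.824 to 1.08).

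Among the restriction factors and nucleotide enzymes, Rsad2 had the second largest ratio of all 38 genes. It encodes viperin, which makes a chain-terminating nucleotide, and was at 2.28 FPKM in the vehicle library, 16.1 in amiodarone, 3.15 in dabigatran and 6.25 in the combination. The neighbouring gene Cmpk2, a nucleotide kinase within the same 37.1 kb of chromosome 12 (chr12:26442743-26479837), had 9.37, 22.6, 9.66 and 11.5 FPKM. The order of the libraries was the same for both, and the ratio of amiodarone to vehicle was 7.08 for Rsad2 (5.96 to 8.46) and 2.41 for Cmpk2 (2.17 to 2.67). Ifitm3, which blocks the fusion of viruses in endosomes, had the highest level of the 38 in every library. Its levels were 479, 1011, 504 and 691 FPKM. Bst2, or tetherin, which holds budding virus at the cell surface, had 86.2, 182, 92.6 and 121 FPKM. Both genes were 2.11 times as high with amiodarone as with vehicle, and both had a ratio above 1 in the combination against dabigatran (1.37 and 1.31). Trim30a, which restrains inflammatory signalling, had a ratio of amiodarone to vehicle of 2.35 (2.13 to 2.58). Samhd1, which depletes deoxynucleotides, and the exonuclease Isg20 were abundant but differed little. Samhd1 was at 72.8, 83.7, 71.6 and 76.01 FPKM. Isg20 was at 42.4, 45.1, 42.6 and 35.7 FPKM, and its amiodarone to vehicle interval (0.96 to 1.18) included 1.

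The remaining induced genes have less settled roles. Ifi27l2a was at 60.9 FPKM in the vehicle library, 245 in amiodarone, 101 in dabigatran and 110.1 in the combination. Its dabigatran level was 1.65 times the vehicle level (1.46 to 1.87), and the combination did not differ from dabigatran beyond counting error (0.989 to 1.21). Ifi44 had 3.44, 16.5, 4.47 and 4.56 FPKM, and its combination to amiodarone ratio of 0.276 (0.238 to 0.318) was the lowest of the 38 genes. Rtp4, which regulates interferon responses, had 19.1, 82.8, 22.8 and 33.9 FPKM, and the combination lay between dabigatran and amiodarone. Xaf1, a promoter of apoptosis, gave a ratio of amiodarone to vehicle of 2.57 (2.27 to 2.93), Phf11d one of 2.16 (1.90 to 2.45) and Ifi35 one of 1.49 (1.37 to 1.63). For these 3 genes the combination and dabigatran levels were within counting error.

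Stat2, the transducer that carries the DNA-binding complex, was the member that belongs to the signalling chain itself. It was at 11.3 FPKM in the vehicle library, 30.3 in amiodarone, 12.5 in dabigatran and 16.6 in the combination. The other genes of the pathway were taken from a fixed list of 55 symbols, of which 34 were in the table and 32 had at least 10 reads. Against vehicle, 7 of the 32 were at least 2-fold higher with amiodarone (among them Irf7, Socs3, Tlr7, Irf9, Cgas and Adar), none was 2-fold lower, and the median ratio was 1.06. Of these 7, Irf7, the factor that amplifies interferon production, was at 14.7, 87.03, 17.2 and 32.98 FPKM with vehicle, amiodarone, dabigatran and the combination. Irf9, which brings the complex to DNA, was at 22.8, 51.1, 27.3 and 31.9 FPKM. Both had the same order of libraries as most of the 38 genes. Socs3, an inhibitor of cytokine signalling, was at 12.3, 38.7, 12.6 and 26.3 FPKM, and it was the only pathway gene at least 2-fold higher in the combination against dabigatran. Its relative Socs1 was at 4.11, 4.7, 5.51 and 3.51 FPKM. In the combination against amiodarone 1 pathway gene, Irf7, was at least 2-fold lower and none was 2-fold higher. With dabigatran against vehicle none reached 2-fold in either direction.

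The receptor genes and the receptor kinases had ratios nearer to 1, while the genes that trigger interferon production were mixed. The 6 receptor genes had ratios of amiodarone to vehicle between 0.989 and 1.18. Ifnar1 was at 17.98, 17.8, 19.03 and 17.4 FPKM and Ifnar2 at 71.4, 72.2, 77.1 and 71.3 FPKM. The receptor kinases had ratios of amiodarone to vehicle of 0.941 for Jak1 (0.902 to 0.981) and 1.01 for Tyk2 (0.91 to 1.11). Among the adaptors and factors that trigger interferon production, the ratio was 0.93 for Irf3 (0.856 to 1.01), 1.02 for Tmem173 (0.894 to 1.16) and 0.846 for Mavs (0.764 to 0.936). It was 1.27 for Myd88 (1.17 to 1.39), 1.25 for Tbk1 (1.12 to 1.39) and 5.92 for Irf7 (5.36 to 6.55). The 12 listed sensing genes had a median ratio of 1.20, with 7 higher and 1, Mavs, lower beyond counting error. Of the interferons, Ifnz and Ifng had at most 4.71 and 9 estimated reads in any library, under the minimum for a ratio, and the other listed interferon genes were not analysed here.

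Markers of immune cells also differed between the libraries. Summed macrophage markers (12 of 12 detected with at least 10 reads) were 3629 FPKM in the vehicle library, 5949 in amiodarone, 3955 in dabigatran and 5921 in the combination. Their median ratio of amiodarone to vehicle was 2.32, with 7 of 12 at least 2-fold higher, and in the combination against dabigatran it was 2.47, with 9 of 12. Most of the macrophage sum was Lyz2, at 3396, 4907, 3693 and 4618 FPKM. In the combination against amiodarone the macrophage sum had a ratio of 0.995. By gene the median of that list was 1.16, with 8 of 12 higher and 2 lower beyond counting error. In the same comparison the neutrophil sum had a ratio of 0.716 and the monocyte sum 0.792. By gene the neutrophil median was 0.75, with 7 of 9 lower and none higher beyond counting error. For monocytes the median by gene was 0.967, with 3 of 8 lower and 2 higher beyond counting error. Nr4a1 (0.423) and Ly6c2 (0.659) had the lowest ratios of the monocyte list. The sum of the 38 interferon-stimulated genes had a ratio of 0.582, and their median by gene was 0.534. Summed neutrophil markers (9 of 10 with at least 10 reads) were 117 FPKM, 626, 103 and 448 in the same order, and their median ratios were 6.14 for amiodarone against vehicle and 5.67 for the combination against dabigatran. Of the defining neutrophil genes, Ly6g had 1, 22, 3 and 14 reads. In each of these comparisons 7 of the 9 genes were at least 2-fold higher, and Ltf and Ngp were not. Ltf was at 24.4, 28.2, 33.2 and 15.2 FPKM. Its ratio was 1.15 for amiodarone against vehicle and 0.459 for the combination against dabigatran, the latter lower beyond counting error. Ngp, with at most 34 reads in any library, had ratios of 0.807 (0.413 to 1.56) and 1.99 (1.07 to 3.86). Summed monocyte markers (8 of 8) were 192 FPKM, 295, 226 and 234. Nr4a1, a nuclear receptor of patrolling monocytes, took a large part of this sum and went against the other 7 markers, at 81.4, 35.5, 115 and 15.02 FPKM. The median ratio of the 8 was 1.71 for amiodarone against vehicle and 1.99 for the combination against dabigatran, and in both comparisons 7 were higher and 1, Nr4a1, was lower beyond counting error. Ly6c2 was at 28.2, 115, 34.9 and 75.8 FPKM. The monocyte gene Ly6c2 is itself known to be inducible by interferon. Markers of plasmacytoid dendritic cells, a main source of type I interferon, summed to 199.8 FPKM, 173, 153 and 181 (8 of 9 with at least 10 reads), of which Cox6a2 alone made up 139, 124, 93.8 and 129.6. Most of the rest was Tcf4 (33.45, 29.57, 33.98 and 28.83 FPKM) and Irf8 (21.35, 16.14, 20.27 and 17.87). Every other marker of this list was at most at 1.82 FPKM in any library. The sum therefore follows Cox6a2, Tcf4 and Irf8 and says little of the other markers. By gene the median ratio of this list was 0.82 for amiodarone against vehicle, with 6 of the 8 lower beyond counting error, and 0.865 for the combination against dabigatran. Siglech was at 1.19, 0.43, 0.9 and 1.01 FPKM. No marker of these 4 cell types was at 0 reads in any library. Natural killer cell markers summed to 35.3, 43.9, 61.6 and 54.2 FPKM, most of it Gzma (24.6, 34.2, 44.8 and 39.9). Their median ratio of amiodarone to vehicle was 0.923, with Gzma higher and 2 genes (Eomes and Prf1) lower beyond counting error out of 6. T cell markers summed to 51.6, 52.8, 54.5 and 54.4 FPKM. B cell markers were lower with amiodarone, at 170.1, 58.1, 144 and 105 FPKM. The part of these cell types in the levels of the 38 genes was not tested.

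**Figure D5:**
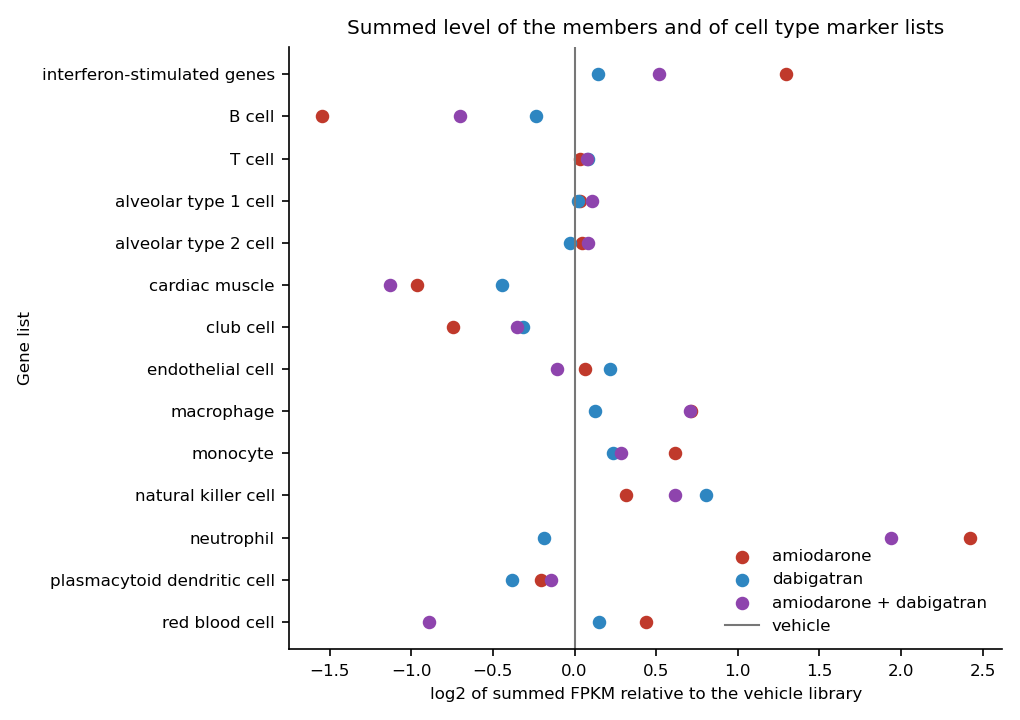
Summed FPKM of the 38 interferon-stimulated genes and of the marker lists of 13 cell types in the amiodarone, dabigatran and combination libraries, as log2 relative to the vehicle library (grey line). The interferon-stimulated genes lie at ratios of 2.46, 1.10 and 1.43 to vehicle, while the macrophage points of amiodarone (1.64) and the combination (1.63) coincide and the neutrophil points lie at 5.35 and 3.83. The macrophage sum is mostly Lyz2, and the plasmacytoid dendritic cell sum is mostly Cox6a2. Ifitm3 is the largest part of the sum of the 38 genes.

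Red blood cell, club cell and cardiac muscle markers differed as well. Red blood cell markers summed to 15785 FPKM in the vehicle library, 21407 in amiodarone, 17537 in dabigatran and 8524 in the combination, club cell markers to 130281, 77816, 104459 and 101832 FPKM, and cardiac muscle markers to 1052, 539, 772 and 481 FPKM. Their part in the results was not tested either. Hepatocyte markers, included as a check on other tissue, summed to 2.58 FPKM with vehicle and at most 0.31 in the other libraries, with Apoa1 and Ttr under 10 reads. Rescaling each library by a median ratio (factors between 0.976 and 1.01), taken from 12728 genes that reached 1 FPKM everywhere, left amiodarone the highest library for all 38 genes.

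By position, 17 of the 38 genes fell into 6 groups of neighbours less than 200 kb apart, spread over chromosomes 1, 5, 12, 16 and 19. Neighbours had unequal ratios in some groups and like ratios in others. On chromosome 19 the ratio of amiodarone to vehicle was 2.06 for Ifit2 and 5.86 for Ifit1, and on chromosome 1 it was 1.48 for Ifi203 and 5.44 for Ifi204. In each of these pairs the intervals did not overlap (1.86 to 2.29 and 5.24 to 6.57; 1.37 to 1.60 and 4.45 to 6.67). Rsad2 and Cmpk2 on chromosome 12 differed in the same way. In contrast, Oasl1 and Oasl2 had 3.73 and 4.94, with intervals that overlapped slightly (2.97 to 4.72 and 4.63 to 5.28). The intervals of Parp14 (1.97 to 2.23), Dtx3l (1.76 to 2.14) and Parp9 (1.87 to 2.23) also overlapped. The group of Oas genes was mixed. The intervals of Oas2 and Oas3 overlapped (4.87 to 6.73 and 5.34 to 8.06). Those of the near-identical Oas1a and Oas1g did not (3.04 to 4.21 and 6.20 to 16.0).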

How the data were processed

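Total RNA of the left lung was enriched for polyadenylated RNA and sequenced by DNBseq, with 1 library for each of 4 groups. Per the submitters' processing notes, the authors used HISAT, Bowtie2 and RSEM with the mouse genome GRCm38.p6. For each library the table of 17780 genes holds an estimated count of reads and a normalized value, both as deposited by the authors. The deposited values were read as FPKM on a linear scale, although the sources used here do not name the unit. Reads per unit of value differed between amiodarone and vehicle by 1.07, the same factor as total reads. This shows scaling to library depth and does not tell FPKM from other units scaled to depth. The vehicle, amiodarone, dabigatran and combination libraries held 17498486, 18725403, 17752873 and 18903401 reads. A further 8 columns of means over 2 libraries were not used. Libraries were assigned to groups by their labels.

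Ratios of FPKM were computed with Python 3.11.15, pandas 2.3.3 and scipy 1.17.1 for genes with at least 10 reads in 1 library (15169 genes), with exact Clopper-Pearson 95% intervals from reads rounded to whole numbers. The intervals cover counting error only, since fragments can be copies of 1 molecule. A library at 0 reads was set to a floor of 3 reads. The interval of the quotient of 2 ratios used a normal approximation on the log scale. The calculation was tested on simulated data. Open reading frames were aligned with Biopython 1.88 from GENCODE mouse transcripts, and promoters and coordinates came from RefSeq for GRCm38.p6.

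All genes of the list were named, by role, together with every gene of the pathway and marker lists that a result turned on. The members and the lists were chosen with earlier results of these data known. Alternatives were another scaling, reads divided by library totals, pseudocounts of 1 and 0.1, a minimum of 50 reads or none, a threshold of 1.5-fold, summing near-identical genes and a promoter window of 300 bases. Mx1 and Mx2 were not analysed here.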

Additional observations from a re-analysis of the deposited data

Results flagged for a closer look

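Ifi203 was singled out because its 2 amiodarone ratios lay on opposite sides of 1. The amiodarone library was above vehicle at a ratio of 1.48 (95% counting interval 1.37 to 1.60), and the combination library was below dabigatran at 0.805 (0.742 to 0.874). The quotient of the ratios was 1.84 (1.64 to 2.05). With 1 library per group the difference was not tested, and the intervals cover counting error only. The estimated reads of Ifi203 were not whole numbers in every library, and its open reading frame was 71.7% identical to that of Ifi204 over 1844 aligned bases.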

How the results depend on the processing

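Of 110 recomputed values over 16 results, 102 kept the direction and stayed within 1.5 times the reported count or within the counting interval of the reported median, 8 moved further, and none reversed. Those 8 were counts of genes under another threshold or pseudocount. The 102 overstate how far the results were tested. Another minimum of reads, or none, could not change a result for the 38 genes, because all of them passed every minimum. Many of the other unchanged values were counts of 0 that stayed at 0. With a threshold of 1.5-fold in place of 2-fold, 10 genes in place of 4 were higher in the combination against dabigatran, 3 in place of 0 were higher with dabigatran against vehicle, and 30 in place of 15 were lower in the combination against amiodarone. With a pseudocount of 1, only 2 genes remained at least 2-fold higher in the combination against dabigatran, since the added value shrinks ratios of low levels. Counting differences beyond counting error, an alternative chosen after seeing the data, gave 25 higher and 2 lower genes in the combination against dabigatran, 16 higher with dabigatran against vehicle and 38 lower in the combination against amiodarone. No rescaling moved the median of all genes by over 0.1 on the log2 scale. No paired analysis was possible because each group has 1 library. Depth limits Oas1g most, which had 21 reads with vehicle.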
